A study of Mus musculus with 20 samples.

Results

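The IgLON family and the genes around the segment deleted in *Gadlor*-KO mice were described here as 8 listed genes: the 4 IgLON genes *Lsamp*, *Negr1*, *Ntm* and *Opcml*, and the 4 chromosome 16 genes *Igsf11*, *Gap43*, *Boc* and *Hspbap1*. They were listed by symbol and not picked by their values, but earlier results of these data were known when they were chosen. Of the 8 genes, 6 were found in at least 1 of the tables of endothelial cells (ECs), fibroblasts (FBs) and cardiomyocytes (CMs), which together hold 15015 genes. Of these, 6 were measured in ECs, 4 in FBs and 2 in CMs. Samples are named by genotype and the number in their label. All 3 *Lsamp* transcript rows of the EC and FB tables were examined, and for every other gene the transcript with the highest mean.

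The samples were bulk RNA-seq libraries of cells isolated 2 weeks after transverse aortic constriction (TAC), a pressure overload that both genotypes had undergone, in mice operated on at 8 to 10 weeks of age. *Gadlor*-KO mice carried a systemic homozygous CRISPR-Cas9 deletion of the lncRNAs *Gadlor1* and *Gadlor2*, derived from a single G4 embryonic stem cell clone injected into C57BL/6 blastocysts, and wild-type (WT) littermates were the controls. Each genotype had 4 samples of ECs, 3 of FBs and 3 of CMs. ECs were captured with CD146 beads, FBs came from the flow-through of that step after feeder removal beads, and CMs were obtained by Langendorff perfusion and sedimentation, so each sample is an enriched population and not a pure one. Expression of *Gadlor1* and *Gadlor2* themselves was not analysed here, so the genotype labels were not checked against the deleted transcripts.

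IgLON proteins are small immunoglobulin-domain molecules held at the outer cell surface by a GPI anchor. They bind one another in pairs within and between cells, and they are best known from the nervous system, where they regulate neurite outgrowth and synapse formation. The other 4 genes share a chromosome with *Lsamp* and no single function. *Igsf11* is a homophilic adhesion molecule, *Gap43* is a calmodulin-binding protein of axonal growth cones, *Boc* is a co-receptor for Hedgehog ligands, and *Hspbap1* encodes a JmjC-domain protein that binds the small heat shock protein Hspb1.

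The deleted segment, chr16:39995533-40004426, spans 8894 bp and overlapped *Lsamp* alone. Its ends are taken here as mm10 positions, the build of the alignment, since the study names no build for them. In the GENCODE annotation *Lsamp* extends over 2197.3 kb of the plus strand. *Lsamp* row ENSMUST00000187695 begins 11.2 kb before the segment. Its exon 1 ends 10805 bp before the segment, which therefore lies within its intron 1. The rows ENSMUST00000078873 and ENSMUST00000099761 begin 1528.4 kb and 1528.6 kb after the segment, so that their transcribed length does not contain it. The exon 1 to exon 2 junctions separate these 2 kinds of transcript and are printed for that reason, with 15 bases of exon 1 in lower case followed by 15 bases of exon 2 in capitals, all of them coding.
Lsamp, start before the segment: tcttctcattgcaagTCTTGGCATTTTGGA
Lsamp, both starts after the segment: cacggccatcctcagGTGTGTGGTAGAAGA
The downstream pair shares its junction, and the 3 rows have 843 exonic bases in common. Only 417 bases (12.2%) of ENSMUST00000187695 belonged to none of the other rows, against 1692 bases (57.3%) of ENSMUST00000078873 and 5384 bases (61.2%) of ENSMUST00000099761. The libraries were single-end reads of 50 bases, and how reads that match several rows were assigned is not given in the sources used here.

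RefSeq (GRCm38.p6) lists 2 promoters of *Lsamp*, which lie on either side of the deleted segment and are shown because the rows divide by their start. Each spans a transcription start on the plus strand and is printed with CpG dinucleotides in capitals.
Lsamp promoter before the segment, chr16:39984114-39984413: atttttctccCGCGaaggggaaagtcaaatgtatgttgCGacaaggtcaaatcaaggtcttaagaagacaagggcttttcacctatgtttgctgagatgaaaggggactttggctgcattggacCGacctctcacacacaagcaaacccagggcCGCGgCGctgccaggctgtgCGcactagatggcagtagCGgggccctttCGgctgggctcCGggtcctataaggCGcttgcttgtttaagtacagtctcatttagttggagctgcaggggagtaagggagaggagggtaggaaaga
Lsamp promoter after the segment, chr16:41532576-41532875: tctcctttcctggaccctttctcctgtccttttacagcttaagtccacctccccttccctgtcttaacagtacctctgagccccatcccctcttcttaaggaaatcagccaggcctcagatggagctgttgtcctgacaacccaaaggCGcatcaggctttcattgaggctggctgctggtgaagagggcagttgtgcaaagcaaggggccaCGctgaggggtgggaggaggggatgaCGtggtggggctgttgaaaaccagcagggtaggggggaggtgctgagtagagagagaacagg
The promoter before the segment held 12 CpG and the one after it 3, against a median of 7 over 32851 promoters of the same length. Neither strand of either promoter held the motif TATAAA, which 13.6% of all promoters held. Of the 8 listed genes, 6 had a promoter entry. *Negr1* had 29 CpG, *Hspbap1* 26, *Igsf11* 25 and *Opcml* 9, whereas the 2 promoters of *Ntm* had 2 and 19.

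The other listed genes of chromosome 16 lay far from the segment. *Igsf11* ended 0.968 Mb before it and *Gap43* began 2.244 Mb after it. *Hspbap1* lay 4.167 Mb before and *Boc* 4.481 Mb after it. The remaining IgLON genes are on chromosome 3 (*Negr1*) and chromosome 9 (*Ntm* and *Opcml*).

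Several libraries stood apart, which bears on all results. The effective library size was 40.1 to 55.4 M reads in ECs, 15.04 to 59.8 M in FBs and 10.6 to 20.2 M in CMs. Mitochondrially encoded transcripts took 5.25% to 8.59% of the CPM of WT and 8.03% to 20.4% of that of *Gadlor*-KO ECs. In FBs they took 73.6% in WT-260 and 3.81% and 5.69% in the other WT samples, against 46.3% to 60.9% in *Gadlor*-KO samples. In CMs they took 26.7% to 46.8% for WT and 65.1% to 75.6% for *Gadlor*-KO samples. Cell type labels were checked with lists of 10 marker genes each, all 10 of which the tables held for the 3 cell types. The summed endothelial markers of ECs lay between 12.2 and 12.4 log2 CPM and the summed fibroblast markers of FBs between 12.7 and 14.7. The FB and CM libraries differed in markers by genotype. Summed endothelial markers of FBs were at 5.67 to 9.16 log2 CPM for WT and at 9.70 to 10.4 for *Gadlor*-KO samples. All 10 were higher in *Gadlor*-KO FBs, with 0 called by limma and 9 at an unadjusted p under 0.05. Of 10 fibroblast markers, 9 were lower in *Gadlor*-KO FBs. The part of these cells in the FB results was not tested. In CMs, summed cardiomyocyte markers were at 14.8 to 15.5 log2 CPM for WT and at 9.41 to 12.6 for *Gadlor*-KO samples. Summed fibroblast markers of CMs were at 6.10 to 7.31 for WT and at 10.97 to 11.3 for *Gadlor*-KO samples. *Gadlor*-KO CM samples 1 and 2 went against their label, with cardiomyocyte markers (9.91 and 9.41) below fibroblast markers (10.97 and 11.3), whereas in *Gadlor*-KO sample 3 the cardiomyocyte markers (12.6) were the highest of the lists. The EC libraries also carried pericyte and smooth muscle markers, whose sums lay between 11.4 and 11.7 log2 CPM over both genotypes, not far below the endothelial sums. Limma called 0 of these 10 markers in ECs, with 1 at an unadjusted p under 0.05 and a median log2 difference of 0.07. The part of pericytes and smooth muscle cells in the EC values of the listed genes was not tested. In bulk samples, fewer cells of a type and less RNA per cell cannot be told apart.

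Genotypes were compared within each table with limma on the deposited log2 CPM values, and a gene was called at a Benjamini-Hochberg adjusted p under 0.05 over all genes of the table with a fold change above 1.5. In ECs, *Boc* and *Hspbap1* were lower in *Gadlor*-KO samples, and none of the listed genes was higher. These 2 of 6 genes stand against 5.31% of all 13929 EC genes called lower, 2.08% called higher and 7.39% called in either direction. In FBs 0 of 4 listed genes were called by limma, with 0 at an unadjusted p under 0.05, against 0.00737% of all genes (1 of 13563). In CMs *Boc* was higher and *Hspbap1* was not called. This 1 of 2 genes stands against 21.3% of all 13038 CM genes called higher, 19.6% called lower and 40.9% called in either direction. With CPM rescaled to nuclear transcripts, the 2773 higher and 2556 lower CM genes became 4388 and 1494. The median log2 difference of the listed genes was -0.13 in ECs, -0.17 in FBs and 2.07 in CMs, beside medians over all genes of 0.03, 0.01 and 0.15.

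**Figure D1:**
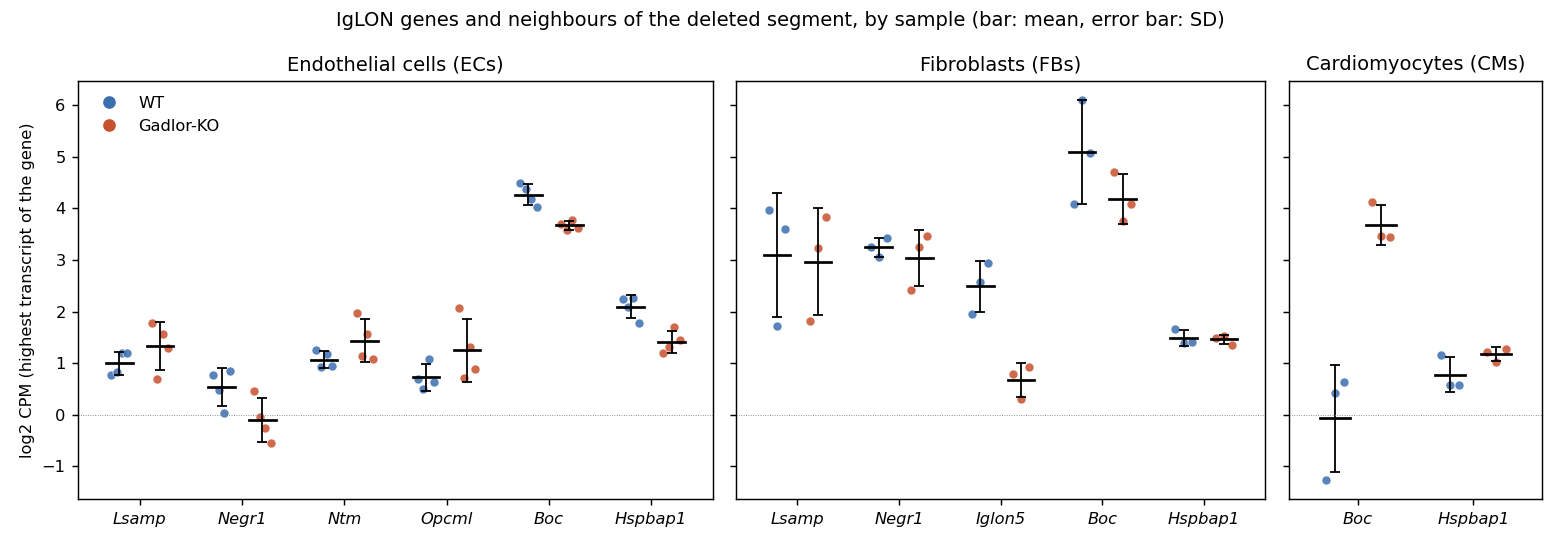
Level of each gene in each sample (log2 CPM, highest transcript of the gene) in ECs, FBs and CMs, with WT samples in blue and *Gadlor*-KO samples in red; horizontal bars are means and error bars the SD over 4 samples per group in ECs and 3 in FBs and CMs. *Boc* and *Hspbap1* separate by genotype in ECs, *Iglon5* in FBs and *Boc* in CMs, in the opposite direction.

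*Lsamp*, the host gene of the deleted segment, was weakly expressed in ECs, where 15.5% of all genes had a lower mean. The CM table held 0 rows of *Lsamp*. In ECs, the row that begins before the segment was at 0.95, 0.98, 1.17 and 1.18 log2 CPM in WT samples and at 2.198, 0.13, 1.503 and 0.77 in *Gadlor*-KO samples. The *Gadlor*-KO samples lay on both sides of the WT range, with KO-105 the highest and KO-108 the lowest of all 8. Sample KO-108 rested on 43 reads of this row and KO-105 on 217. The mean was 1.07 ± 0.12 for WT and 1.15 ± 0.90 for *Gadlor*-KO samples (SD, n = 4), a log2 difference of 0.08 (95% confidence interval -0.78 to 0.95, limma adjusted p = 0.903). It turned negative, to -0.27 and -0.04, without KO-105 and without KO-131.

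The row with the highest EC mean, ENSMUST00000099761, begins after the segment and was at 0.77, 0.84, 1.19 and 1.19 log2 CPM in WT samples. In *Gadlor*-KO samples it was at 1.77, 0.69, 1.56 and 1.29, so that 3 of 4 lay above the WT range and KO-108 below it. The log2 difference was 0.33 ± 0.22 (SE, limma adjusted p = 0.321), and was 0.18 without KO-105 and 0.54 without KO-108 (adjusted p = 0.0568). The shorter row ENSMUST00000078873 was at -0.09 ± 0.27 for WT and 0.08 ± 0.89 for *Gadlor*-KO ECs (SD, n = 4), with a difference of 0.16 and an adjusted p of 0.796 by limma. In each of the 3 rows KO-105 was the highest sample and KO-108 the lowest.

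Within a sample, the row beginning before the segment differed from ENSMUST00000099761 by 0.07 ± 0.10 log2 units for WT and by -0.18 ± 0.47 for *Gadlor*-KO ECs (SD, n = 4). The difference ranged from -0.02 to 0.18 for WT and from -0.56 to 0.43 for *Gadlor*-KO samples, so the groups overlapped. In FBs the same difference was -0.48 ± 0.11 for WT and -0.45 ± 0.16 for *Gadlor*-KO samples (SD, n = 3). The genotypes thus overlapped in both cell types in this difference between rows. It cannot give the relative level of the transcript that spans the segment, since the rows share bases and the assignment of reads is not given.

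In FBs *Lsamp* stood higher in its table, with 48.6% of all genes below it, and varied more between samples than between genotypes. ENSMUST00000099761 was at 3.97, 1.73 and 3.60 log2 CPM for WT-260, WT-277 and WT-283. It was at 1.82, 3.23 and 3.84 for KO-240, KO-241 and KO-242. Each genotype thus had 1 low sample and 2 high ones. The log2 difference was -0.13, with a 95% confidence interval from -1.82 to 1.55 (limma adjusted p = 0.952), and was 0.30 without WT-260, 0.12 without WT-283, 0.44 without KO-240, -0.82 without WT-277, -0.27 without KO-241 and -0.57 without KO-242.

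The row beginning before the segment followed the same order, at 3.61, 1.18 and 3.05 log2 CPM for WT and 1.24, 2.75 and 3.56 for *Gadlor*-KO FBs. WT-277 and KO-240 were the lowest samples in all 3 rows. These 2 samples also had the lowest summed macrophage markers of the 6 libraries, at 9.68 and 9.48 log2 CPM against 10.1 to 10.8 in the others, with all 10 markers held by the table. WT-277 had the highest summed fibroblast markers, at 14.7, and KO-240 the lowest, at 12.7. The part of cell composition in the *Lsamp* values was not tested. In ECs and FBs together limma called 0 of 3 rows in each table, with 0 at an unadjusted p under 0.05.

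**Figure D2:**
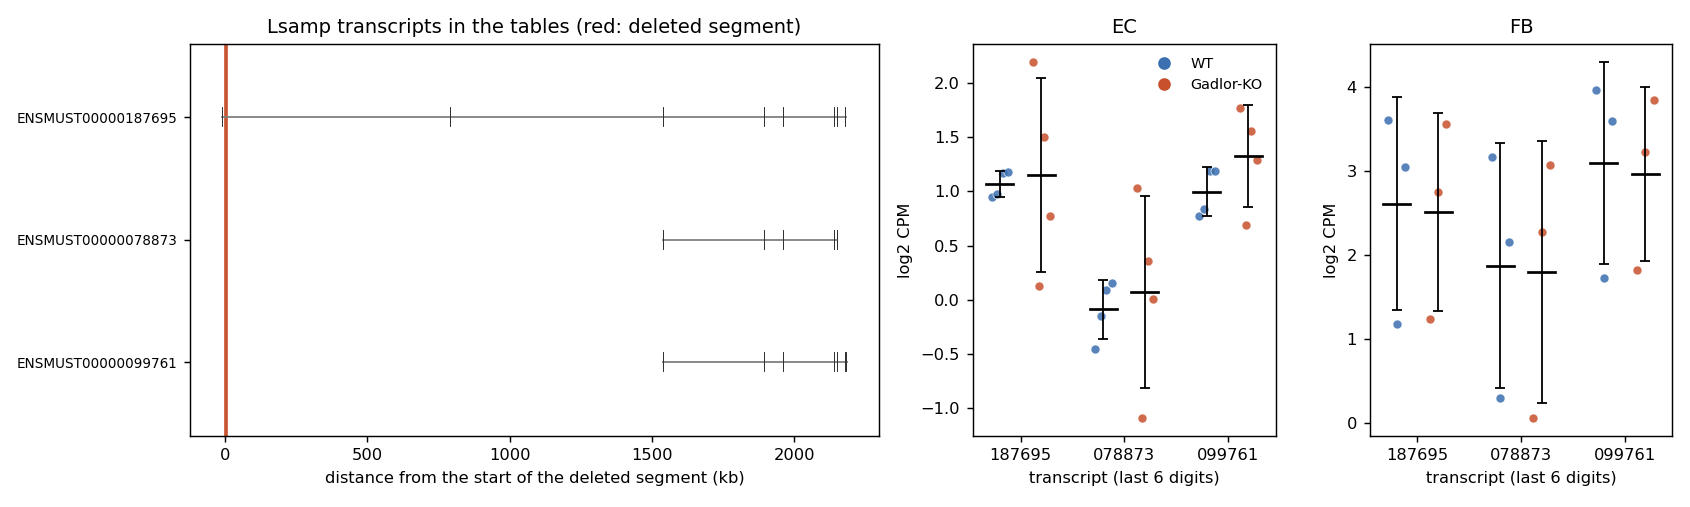
Left, the 3 *Lsamp* transcripts of the tables by distance in kb from the start of the deleted segment (red), with ticks for exons, drawn wider than their true length; right, the log2 CPM of each transcript row by sample in ECs and FBs (bars are means, error bars the SD over 4 and 3 samples per genotype). One transcript begins 11.2 kb before the segment and the others 1528.4 and 1528.6 kb after it, and the genotypes overlap in every row.

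The other IgLON genes were not called in any table. *Negr1*, which promotes neurite growth in the brain, was at 0.77, 0.47, 0.04 and 0.85 log2 CPM in WT ECs and at 0.45, -0.05, -0.26 and -0.55 in *Gadlor*-KO ECs. The groups overlapped, with 3 of 4 *Gadlor*-KO samples below the whole WT range. The mean was 0.53 ± 0.37 for WT and -0.10 ± 0.42 for *Gadlor*-KO samples (SD, n = 4), and the log2 difference of -0.63 ± 0.26 (SE) gave a limma adjusted p of 0.107, from 33 to 91 reads per library. Without KO-105 it was -0.82 with an adjusted p of 0.0474, and over all 16 alternatives the adjusted p ranged from 0.0474 to 0.242. Summed macrophage markers were at 7.52 to 8.34 log2 CPM in WT ECs and at 7.78, 8.41, 6.07 and 5.97 in *Gadlor*-KO ECs. Summed fibroblast markers were at 9.15 to 10.3 in WT ECs and at 9.23, 9.96, 8.77 and 9.80 in *Gadlor*-KO ECs. The part of these cells in the *Negr1* values was not tested.

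In FBs *Negr1* was much steadier than *Lsamp*. It was at 3.25, 3.06 and 3.43 log2 CPM for WT and 2.42, 3.25 and 3.46 for *Gadlor*-KO samples. KO-240 alone stood below the others, and the difference of -0.21 (95% confidence interval -0.87 to 0.46) was not significant (limma adjusted p = 0.782). Without KO-240 it was 0.11 and without KO-242 it was -0.41.

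*Ntm*, or neurotrimin, and *Opcml*, the opioid-binding IgLON protein, were held by the EC table alone. *Ntm* was at 1.25, 0.92, 1.17 and 0.94 log2 CPM in WT ECs and at 1.98, 1.13, 1.56 and 1.09 in *Gadlor*-KO ECs. *Opcml* was at 0.69, 0.49, 1.08 and 0.63 for WT and at 2.07, 0.71, 1.32 and 0.88 for *Gadlor*-KO ECs. In both genes 2 *Gadlor*-KO samples, KO-105 and KO-131, lay above all WT samples, and the remaining pair lay within the WT range.

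The log2 differences were 0.37 ± 0.20 for *Ntm* (SE, limma adjusted p = 0.213) and 0.52 ± 0.28 for *Opcml* (SE, limma adjusted p = 0.208). Without KO-105 they were 0.19 and 0.25. KO-105 was the highest of all 8 EC samples for *Lsamp*, *Ntm* and *Opcml* alike. The 10 Schwann cell markers, all held by the EC table, summed to 4.26 to 5.41 log2 CPM for WT and 4.82 to 5.18 for *Gadlor*-KO ECs, with KO-105 at 4.82. Of 10 neuronal markers the EC table held 1.

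*Iglon5*, the fifth IgLON gene and not among the 8 listed genes, appeared only in FBs. It was at 1.96, 2.58 and 2.93 log2 CPM for WT and at 0.79, 0.31 and 0.93 for *Gadlor*-KO FBs, and the groups did not overlap. The mean was 2.49 ± 0.49 for WT and 0.68 ± 0.33 for *Gadlor*-KO FBs (SD, n = 3), a log2 difference of -1.81 ± 0.32 (SE) or 3.52-fold, on 58 to 429 reads for WT and 41 to 52 for *Gadlor*-KO libraries. The unadjusted p was 6.17e-04, rank 55 of all FB genes, but the limma adjusted p of 0.140 missed the threshold. Groups that do not overlap were found for 21.3% of all FB genes.

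Without WT-260, the library with the highest mitochondrial share, the difference in *Iglon5* was -2.08 with an adjusted p of 0.00696, and limma then called 9.40% of all FB genes. Over all 14 alternatives the adjusted p ranged from 0.00696 to 0.531. Summed fibroblast markers were at 13.2 to 14.7 log2 CPM for WT and 12.7 to 13.4 for *Gadlor*-KO FBs, and summed endothelial markers at 5.67 to 9.16 and 9.70 to 10.4. Of 10 epicardial markers the FB table held 7, which summed to 6.12 to 8.25 for WT and 4.53 to 5.365 for *Gadlor*-KO FBs. All 7 were lower, with a median log2 difference of -3.38, and 0 were called. The part of these cells in the *Iglon5* difference was not tested.

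As a family, the IgLON genes in ECs had 3 positive and 1 negative difference, with a median of 0.35 on the log2 scale, and those in FBs 3 negative differences with a median of -0.21. The EC median was 0.19 without KO-105. The FB median turned to 0.11 without KO-240, and was -0.82 without WT-277, -0.57 without KO-242 and -0.11 without WT-283. Limma called 0 of 4 in ECs and 0 of 3 in FBs, with 1 gene in each at an unadjusted p under 0.05. Because the CM table held 0 IgLON genes, a ranking of other genes by likeness to their pattern over all samples could not be made.

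Other immunoglobulin-superfamily adhesion genes known from neurons gave a broader view of this class. Of 30 listed genes, 20 were in the EC table, where 1 was higher and 0 lower in *Gadlor*-KO samples, with a median difference of 0.13. Among all EC genes, 2.08% were called higher and 5.31% lower. The gene called was *Nectin2*, a nectin of cell junctions, which rose by 0.69 ± 0.10 on the log2 scale (SE) from 4.13 ± 0.20 to 4.83 ± 0.12 (SD, n = 4, limma adjusted p = 0.00119). In FBs limma called 0 of 17, with 5 at an unadjusted p under 0.05 and a median of -0.37, which was -0.056 without WT-277 and -0.16 without KO-240. Without WT-260, 1 was called higher and 4 lower there, in a fit that called 9.40% of all FB genes. In ECs up to 4 of 20 were called higher when WT-34 was left out, in a fit that called 6.86% of all EC genes. In CMs 8 of 13 were higher and 1, *Mdga1*, lower, with a median of 2.30, beside 21.3% of all CM genes called higher and 19.6% called lower. Without *Gadlor*-KO sample 2, 5 were higher and 0 lower.

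The CM genes with the smallest adjusted p were *Kirrel*, *L1cam*, *Cadm3* and *Thy1*, cell adhesion molecules. *Kirrel* rose from 1.06 ± 0.61 to 4.43 ± 0.28 log2 CPM (SD, n = 3, limma adjusted p = 0.00487). *L1cam* rose by 2.63, *Cadm3* by 3.97 and *Thy1* by 2.52 on the log2 scale. All 10 macrophage, all 10 endothelial and 9 of 10 fibroblast markers were called higher in the same libraries, and the part of these cells in the list's count was not tested.

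**Figure D3:**
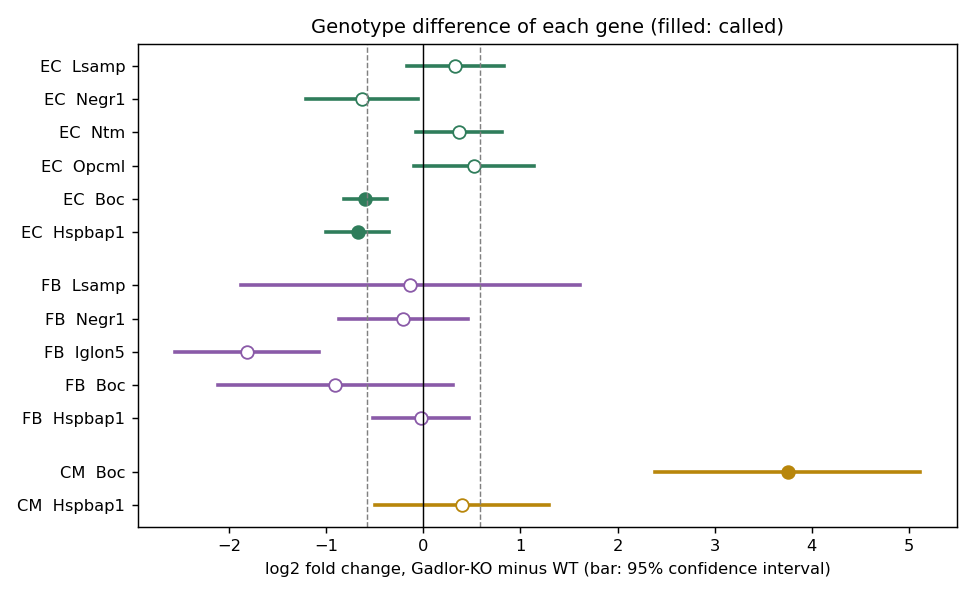
Log2 fold change of each gene, *Gadlor*-KO minus WT, by cell type, with its 95% confidence interval from limma; filled points passed an adjusted p under 0.05 and a fold change above 1.5, marked by the dashed lines. *Boc* in ECs sits at -0.60, next to the line, and *Boc* in CMs at 3.75.

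*Boc*, which binds Hedgehog ligands together with the receptor Patched, was the most abundant of the listed genes in ECs and FBs. In ECs it was at 4.48, 4.37, 4.19 and 4.02 log2 CPM in WT samples. In *Gadlor*-KO ECs it was at 3.70, 3.58, 3.78 and 3.61, so every *Gadlor*-KO sample lay below every WT sample. The mean fell by 0.60 ± 0.10 on the log2 scale (SE, limma adjusted p = 0.00250), from 4.27 ± 0.20 to 3.67 ± 0.09 (SD, n = 4), on 833 to 1026 reads for WT and 480 to 760 for *Gadlor*-KO libraries. Groups that do not overlap were found for 26.2% of all EC genes.

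The fold, 1.51, was close to the threshold of 1.5. The adjusted p stayed between 0.00121 and 0.00973 over all 16 alternatives, but the fold dropped below the threshold in 7 of them, including those without WT-31 (log2 difference -0.52), without WT-32 (-0.56), without KO-108 (-0.57) and without KO-133 (-0.58). Summed fibroblast markers were at 9.15 to 10.3 log2 CPM for WT and 8.77 to 9.96 for *Gadlor*-KO ECs, and of 10 fibroblast markers 1, *Pdgfra*, was called lower. Their part in the *Boc* difference was not tested.

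In FBs *Boc* was at 4.09, 6.10 and 5.07 log2 CPM for WT and at 4.71, 3.75 and 4.08 for *Gadlor*-KO samples. WT-260 lay within the *Gadlor*-KO range and the other WT samples above it. The difference of -0.91 ± 0.51 (SE) was not significant (limma adjusted p = 0.469), and it was -1.41 without WT-260 (adjusted p = 0.0638) and -0.40 without WT-277 (adjusted p = 0.740).

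In CMs *Boc* was close to the lower end of detection in WT samples, at -1.26, 0.41 and 0.63 log2 CPM on 6, 24 and 30 reads. In *Gadlor*-KO samples it was at 4.12, 3.46 and 3.45 log2 CPM on 192, 179 and 115 reads. All *Gadlor*-KO samples lay above all WT samples, and groups that do not overlap were found for 59.5% of all CM genes. The difference of 3.75 ± 0.58 on the log2 scale (SE, limma adjusted p = 0.00610) corresponded to 13.5-fold, with a 95% confidence interval from 5.23-fold to 34.7-fold. It ranged from 3.16 to 4.10 when each sample was left out in turn, and from 1.56 to 4.49 over all 16 alternatives.

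The *Boc* difference in CMs ran alongside those of other cell types' markers. The median log2 difference of the fibroblast markers was 4.37, of the macrophage markers 4.63 and of the endothelial markers 2.67, while that of the cardiomyocyte markers was -4.33. In WT CMs the 10 fibroblast markers summed to 6.10, 7.31 and 6.83 log2 CPM in the order of the samples above, and in *Gadlor*-KO CMs to 10.97, 11.3 and 11.1. Their part in the *Boc* difference was not tested.

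**Figure D4:**
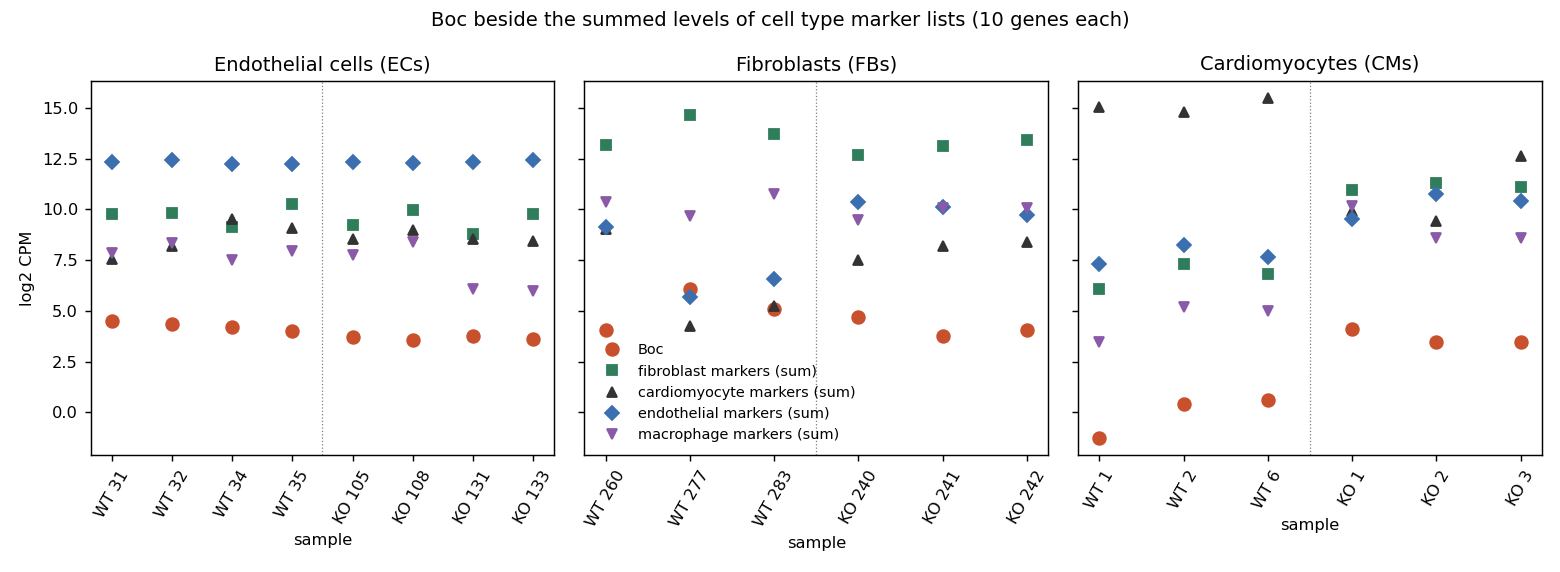
Level of *Boc* (log2 CPM, circles) in each sample beside the summed CPM, on the log2 scale, of 4 lists of 10 marker genes, with WT samples left and *Gadlor*-KO samples right of the dotted line. In CMs, *Boc* and the fibroblast, endothelial and macrophage markers are all higher in the 3 *Gadlor*-KO samples and the cardiomyocyte markers are lower.

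Other genes of Hedgehog signalling were examined beside *Boc*. Of 20 listed genes, 15 were in the EC table, where 2 were lower and 0 higher in *Gadlor*-KO samples, with a median log2 difference of -0.13. This stands beside 5.31% of all EC genes called lower and 2.08% called higher. One of the 2 genes was *Gli1*, a transcription factor and target of the pathway. It was at 0.997, 1.14, 1.67 and 1.37 log2 CPM for WT and 0.52, 0.74, 0.04 and 0.34 for *Gadlor*-KO ECs, and fell by 0.89 ± 0.20 on the log2 scale (SE, limma adjusted p = 0.0111). The groups did not overlap, as for 26.2% of all EC genes, and *Gli1* was called whichever of the 8 EC samples was left out. Of 10 fibroblast markers, 9 had negative differences in ECs, with a median of -0.25 and 1 called lower. Their part in the *Gli1* difference was not tested.

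Several genes that act at the membrane were not called in ECs. *Ptch1*, the receptor of the ligands and itself a target, was at 5.13 ± 0.07 log2 CPM for WT and 4.80 ± 0.22 for *Gadlor*-KO ECs (SD, n = 4), a difference of -0.33 that was under the fold threshold with a limma adjusted p of 0.0443. *Cdon* and *Gas1*, the co-receptors that act beside *Boc*, differed by 0.03 and 0.47, and *Smo*, the signal transducer, by 0.04. The ligand *Dhh* differed by -0.36 with a limma adjusted p of 0.134.

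In FBs limma called 0 of 15 Hedgehog genes, with 3 at an unadjusted p under 0.05 and a median of -0.38. There *Cdon* differed by -1.23 and *Gas1* by -0.83, beside the -0.91 of *Boc*. Without WT-260, 6 of the 15 were called lower and 0 higher, with a median of -0.54, in a fit that called 9.40% of all FB genes. Without WT-277 and without WT-283 the median was -0.24 and -0.20, with 0 called. In CMs 8 of 12 were higher and 1, *Scube2*, lower, with a median of 2.19. This stands beside 21.3% of all CM genes called higher and 19.6% called lower. *Gas1* rose by 3.81, *Gli2* by 4.48, *Kif7* by 2.78 and *Smo* by 2.11 on the log2 scale. The fibroblast markers rose in the same CM libraries, and their part in the Hedgehog genes was not tested.

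*Hspbap1* was lower in *Gadlor*-KO ECs. It was at 2.23, 2.09, 2.26 and 1.78 log2 CPM for WT and at 1.20, 1.31, 1.70 and 1.45 for *Gadlor*-KO ECs. The highest *Gadlor*-KO sample, KO-131, lay just below the lowest WT sample, WT-35. The mean fell by 0.68 ± 0.15 on the log2 scale (SE, 1.60-fold, limma adjusted p = 0.0101), from 2.09 ± 0.22 to 1.42 ± 0.22 (SD, n = 4), on 175 to 262 and 99 to 179 reads. The adjusted p ranged from 0.00637 to 0.0337 over all 16 alternatives, and the fold dropped below the threshold with a pseudocount of 1 CPM (log2 difference -0.52) or 5 CPM (-0.27).

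In FBs *Hspbap1* was nearly level, at 1.66, 1.39 and 1.41 log2 CPM for WT and 1.49, 1.53 and 1.35 for *Gadlor*-KO samples. The difference of -0.02 had a 95% confidence interval from -0.52 to 0.47 (limma adjusted p = 0.971), on 47 to 155 reads per library. In CMs it was at 1.16, 0.58 and 0.58 for WT and at 1.21, 1.02 and 1.28 for *Gadlor*-KO samples, on 25 to 37 reads. The CM difference of 0.40 (95% confidence interval -0.50 to 1.29, limma adjusted p = 0.442) became 1.13 with an adjusted p of 0.0503 when CPM were rescaled to nuclear transcripts. That scaling moved the median of all CM genes from 0.15 to 0.89.

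The small heat shock proteins, the family to which the binding partner of *Hspbap1* belongs, were examined with it. Of 10 listed genes, 6 were in the EC and FB tables and limma called 0 in each, with 0 and 1 at an unadjusted p under 0.05. Without WT-260, 2 of the 6 were called higher in FBs, in a fit that called 9.40% of all FB genes. *Hspb1* itself differed by -0.41 in ECs and by 0.52 in FBs, with limma adjusted p of 0.168 and 0.491. In CMs 6 of 7 were lower, with a median of -3.32, and 3 of 7 were called when *Gadlor*-KO sample 1 or 2 was left out. With all samples, 19.6% of all CM genes were called lower. *Hspb7* fell by 4.11, *Cryab* by 3.83, *Hspb8* by 3.32 and *Hspb2* by 3.20 on the log2 scale. These chaperones are abundant in cardiomyocytes, whose 10 markers were all called lower in the same libraries. The part of these cells in the differences was not tested.

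*Igsf11* and *Gap43*, the protein-coding genes that flank *Lsamp*, were held by 0 of the 3 tables, and no value is given for them. Their relatives were examined in their place. Of 14 adhesion genes of the CTX type related to *Igsf11*, 8 were in the EC table. There 1 was called higher and 1 lower, beside 2.08% and 5.31% of all EC genes. *Vsig2* rose by 0.80 ± 0.09 and *Clmp* fell by 1.02 ± 0.14 on the log2 scale (SE, limma adjusted p = 3.03e-04 and 0.00102). Of 10 fibroblast markers, 9 had negative differences in ECs and 1 was called lower, and their part in the *Clmp* difference was not tested. In FBs limma called 0 of 9, with 3 at an unadjusted p under 0.05. Without WT-260, 3 were called higher, in a fit that called 9.40% of all FB genes. All 10 endothelial markers were higher in *Gadlor*-KO FBs, and their part in this list was not tested. In CMs 7 of 9 were higher and 0 lower, with a median of 2.29, and 4 without *Gadlor*-KO sample 2. With all samples, 21.3% of all CM genes were called higher and 19.6% lower. *Vsir*, *Esam*, *Vsig2* and *Clmp* rose there by 2.74, 2.64, 2.29 and 2.87, and *Esam* is itself one of the endothelial markers used here.

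Of 14 growth cone and calmodulin-binding relatives of *Gap43*, 11 were in the EC table. There 1 was called higher and 2 lower, beside 2.08% and 5.31% of all EC genes. *Marcksl1*, a MARCKS-type membrane protein, fell by 1.22 ± 0.14 and *Basp1*, a growth cone protein of similar type, by 1.01 ± 0.29 on the log2 scale (SE, limma adjusted p = 5.69e-04 and 0.0343). *Crmp1*, a semaphorin signalling protein, rose by 0.66 ± 0.14 (SE, limma adjusted p = 0.00796). The call of *Basp1* was lost without any of 6 of the 8 samples, with an adjusted p of 0.0512 (without WT-31) to 0.0828 (without KO-131), and that of *Crmp1* without WT-34 (log2 difference 0.58) or KO-133 (0.53). In FBs limma called 0 of 11, with 1 at an unadjusted p under 0.05. Without WT-260, 3 were called higher, in a fit that called 9.40% of all FB genes. In CMs 7 of 9 were higher and 1, *Pcp4l1*, lower, beside 21.3% of all CM genes called higher and 19.6% called lower. *Basp1*, *Dpysl2*, *Marcksl1* and *Stmn2* were up there by 3.80, 3.17, 3.53 and 2.24. *Clmp*, *Marcksl1* and *Basp1* were thus called lower in ECs and higher in CMs, as *Boc* was.

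Genes near the deletion were then examined as a group. The annotation holds 192 genes within 5 Mb of the segment, 82 of them protein-coding, and the EC, FB and CM tables held 54, 54 and 49. In ECs 4 were lower and 0 higher, which is 7.41% of 54 beside 7.39% of all genes and 8.67% of 427 genes of chromosome 16. In FBs limma called 0 of 54, with 8 at an unadjusted p under 0.05. In CMs 9 were higher and 9 lower, which is 36.7% of 49 beside 40.9% of all genes and 39.3% of 407 genes of chromosome 16. The shares within 5 Mb were thus close to those over all genes. Within 2.5 Mb, 1 of 19 EC genes, 0 of 20 FB genes and 11 of 18 CM genes were called. Apart from *Lsamp*, these genes all lay before the segment, since the first tested gene after it, *Zbtb20*, was 2.87 Mb away. The median log2 differences within 5 Mb were -0.0017 in ECs, 0.00032 in FBs and 0.34 in CMs. Not all counted genes are separate. *Cox17* and *Gm21987*, both called lower in CMs, overlap in position and may share reads. Their CM means went from 4.91 to 2.34 and from 4.92 to 2.36 log2 CPM. Without WT-32, and likewise without KO-133, 2 EC genes were called. Without WT-260, 2 FB genes were called, in a fit that called 9.40% of all FB genes.

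The 4 genes called in ECs were *Gm17103*, *Cd86*, *Hspbap1* and *Boc*, and only *Gm17103*, at 1.422 Mb before the segment, lay within 2.5 Mb of it. *Gm17103* is annotated as antisense and lies within the bounds of *Tmem39a*. It was at 1.40, 1.54, 1.66 and 1.59 log2 CPM for WT and 0.34, 0.69, 0.62 and 0.55 for *Gadlor*-KO ECs. The groups did not overlap, as for 26.2% of all EC genes, and *Gm17103* fell by 0.998 ± 0.131 on the log2 scale (SE, limma adjusted p = 6.49e-04). *Tmem39a* on the opposite strand differed by -0.30 in ECs, under the fold threshold, with an adjusted p of 0.0241 by limma. The libraries were stranded, but whether counting used the strand is not given in the sources used here, so the reads of the pair may not be separate. In FBs *Gm17103* differed by 0.26 (limma adjusted p = 0.845).

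*Cd86*, a co-stimulatory molecule of antigen-presenting cells, lay 3.329 Mb before the segment and was called in ECs and CMs in opposite directions. It was at 1.74, 2.42, 1.33 and 1.97 log2 CPM in WT ECs and at 0.95, 1.19, -0.54 and -0.94 in *Gadlor*-KO ECs. In CMs it was at -2.46, -1.61 and -3.97 in WT, the last being the lowest value of the table, and at 1.32, 1.40 and 0.90 in *Gadlor*-KO samples. The EC samples KO-131 and KO-133, lowest in *Cd86*, were also lowest in summed macrophage markers, whose part in the difference was not tested. The EC difference of -1.70 had a limma adjusted p of 0.0436, and the call was lost without any of WT-31, WT-32, WT-34, WT-35, KO-131 and KO-133, with an adjusted p of 0.0601 to 0.102. In FBs *Cd86* differed by 0.22 (limma adjusted p = 0.812).

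The 5 called CM genes nearest to the segment all lay before it, between 1.226 and 1.473 Mb. Their side is no result, since the first gene tested in CMs after the segment was *Zbtb20*, at 2.87 Mb. Before it, the nearest tested gene was *Upk1b*, at 1.195 Mb, which was not called. *B4galt4*, a galactosyltransferase, rose by 2.58, *Arhgap31*, a GTPase-activating protein of Rac and Cdc42, by 2.82, *Poglut1*, which glucosylates Notch, by 1.53 and *Tmem39a* by 1.15 on the log2 scale. *Timmdc1*, an assembly factor of respiratory complex I, fell by 2.16. *B4galt4* was higher in *Gadlor*-KO samples of all 3 cell types without overlap, by 0.43 in ECs, 1.31 in FBs and 2.58 in CMs. The limma adjusted p was 0.00795, 0.157 and 0.00487. Groups that do not overlap were found for 26.2% of all EC, 21.3% of all FB and 59.5% of all CM genes. The median log2 difference of the 10 endothelial markers was 0.06 in ECs, 3.57 in FBs and 2.67 in CMs. Their part in the *B4galt4* differences was not tested. *B4galt4* was called in CMs alone, since the EC difference was under the fold threshold. Without WT-260 it was called in FBs as well, together with *Pla1a*, at -0.81, in a fit that called 9.40% of all FB genes.

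**Figure D5:**
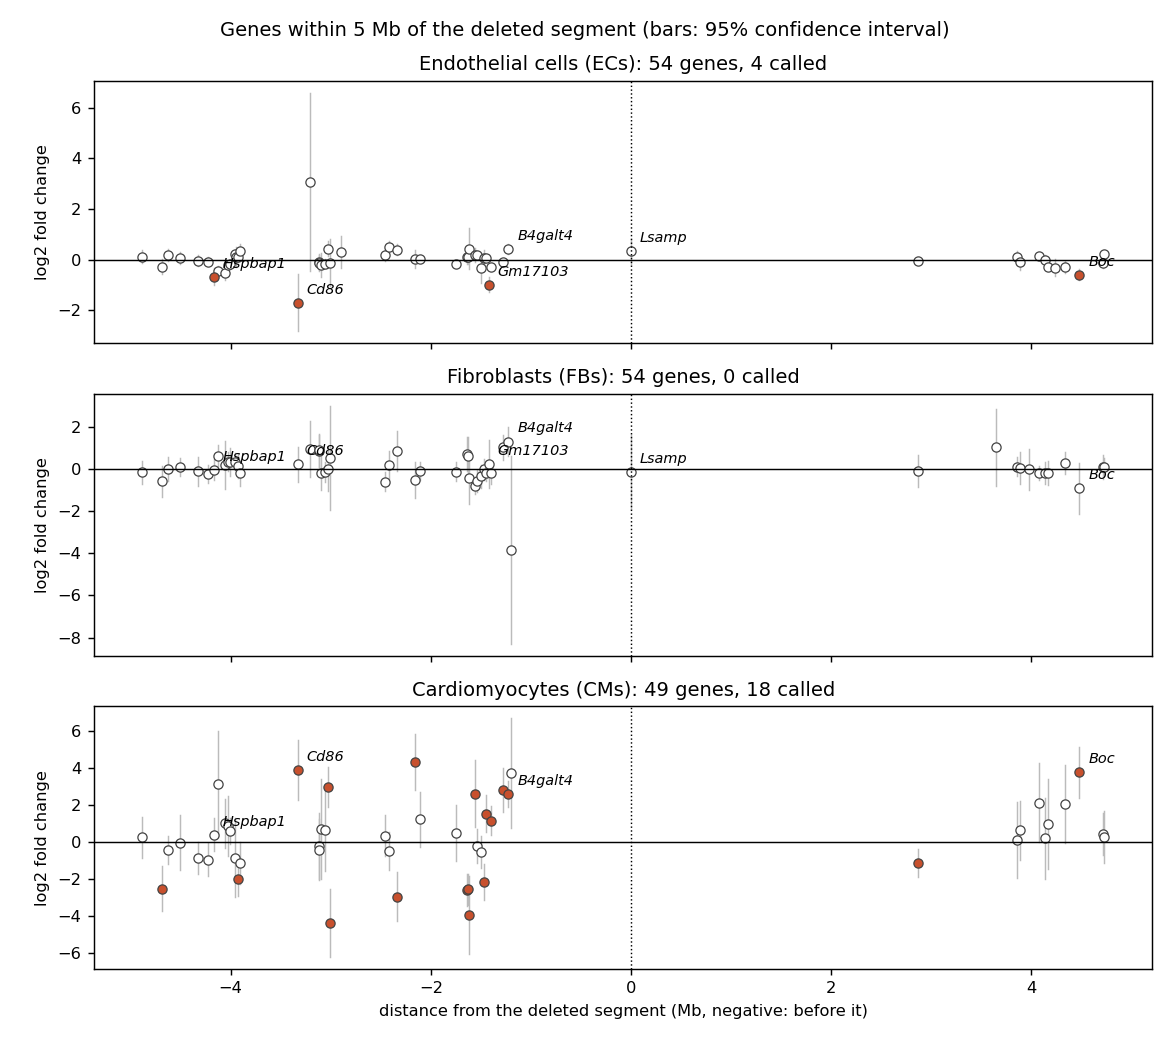
Log2 fold change, *Gadlor*-KO minus WT, of every tested gene within 5 Mb of the deleted segment against its distance in Mb (negative before the segment), with 95% confidence intervals from limma in grey; filled points were called. In ECs 4 of 54 genes are called, in FBs 0 of 54 and in CMs 18 of 49. The nearest called gene, *B4galt4* in CMs, lies 1.226 Mb away. Apart from *Lsamp*, no tested gene lies nearer than *Upk1b*, 1.195 Mb before the segment, or *Zbtb20*, 2.87 Mb after it.

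Levels were last compared between genes, per kb of transcript, in WT samples. In ECs *Boc* was at 2.11 ± 0.20 log2 CPM per kb, *Hspbap1* at -0.13 ± 0.22, *Ntm* at -0.53 ± 0.17, *Negr1* at -1.79 ± 0.37, *Opcml* at -2.02 ± 0.25 and *Lsamp*, by its longest row, at -2.14 ± 0.23 (SD, n = 4). The last 3 lay within their spread of one another. By the row that begins before the segment *Lsamp* was at -0.70 ± 0.12 per kb, next to *Ntm*. In FBs the order was *Boc* at 2.93 ± 1.01, *Iglon5* at 1.10 ± 0.49, *Negr1* at 0.93 ± 0.19, *Lsamp* at -0.04 ± 1.20 and *Hspbap1* at -0.74 ± 0.15 log2 CPM per kb (SD, n = 3), of which *Iglon5*, *Negr1* and *Lsamp* overlapped, as did *Lsamp* and *Hspbap1*.

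Across cell types the tables were normalized separately, so levels are given side by side only. *Boc* was at 5.09 ± 1.01 log2 CPM in WT FBs (n = 3), 4.27 ± 0.20 in WT ECs (n = 4) and -0.07 ± 1.04 in WT CMs (n = 3), and the FB and EC values overlapped. *Hspbap1* was at 2.09 ± 0.22 in ECs, 1.48 ± 0.15 in FBs and 0.77 ± 0.34 in CMs, without overlap between cell types. *Lsamp* by its longest row was at 3.10 ± 1.20 in FBs and 0.998 ± 0.225 in ECs, and *Negr1* at 3.25 ± 0.19 and 0.53 ± 0.37.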

How the data were processed

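Bulk RNA-seq of 20 samples was analysed. Per the paper's methods, stranded single-end libraries of 50 bases were cleaned with FastqCleaner, aligned to mm10 with bowtie2, annotated with biomaRt and tested with edgeR; the submitters' processing notes name Bowtie2, DESeq2 and mm10. Versions, the counting tool and the low-expression filter are not given in the sources used here. The authors deposited log2 CPM per transcript and sample, with columns of their own fold changes, likelihood ratios, p-values and FDR, which were not used.

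The EC, FB and CM tables hold 27016, 26506 and 25362 transcripts (13929, 13563 and 13038 named genes). For a gene with several rows, the transcript of highest mean was taken. Unnamed transcripts (0.441%, 0.419% and 0.414%) were left out. In every sample the low values stepped by whole multiples of one quantum, from which effective library sizes (10.6 to 59.8 M) and reads per value were estimated; no count test was run. Depth thus limits low genes, and the read numbers cover counting error only.

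Genotypes were compared within each table with limma 3.58.1 (trend, robust with statmod 1.5.0, R 4.3.3), adjusted by Benjamini and Hochberg over all genes of the table, with an adjusted p under 0.05 and a fold above 1.5 as the call. Samples were grouped by label; the labels do not say that the samples of a group came from separate animals beyond their numbers, so p-values measure the spread between these samples. The step was tested on simulated data. Fold changes are on the deposited log2 CPM scale, which understates changes of low genes. Transcript positions came from GENCODE vM21 (mm10) and promoters from RefSeq; the deletion ends came from the study's methods, which name no build for them, and mm10 was assumed. Figures were drawn with matplotlib 3.10.9 in python 3.11.15.

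The genes and lists were chosen with earlier results of these data known. All listed genes and *Iglon5* were named, then, per list and cell type, up to 4 called genes ranked by adjusted p, nearby genes called in at least 2 cell types and up to 5 called genes nearest to the segment. Other genes named (*Ptch1*, *Cdon*, *Gas1*, *Smo*, *Dhh*, *Hspb1*, *Pla1a*, *Mdga1*, *Scube2*, *Pcp4l1*, *Pdgfra*, *Upk1b*, *Zbtb20*, *Cox17*, *Gm21987* and the pair of *Gm17103*) were chosen after their values were seen. Alternatives were pseudocounts of 1 and 5 CPM, a minimum mean of 0 log2 CPM, rescaling to nuclear transcripts or to the median, summing transcripts, no trend or robust step, a Y-linked covariate, no fold threshold and leaving out each sample. A result on 1 gene of the lists is not reported here.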

Additional observations from a re-analysis of the deposited data

Results flagged for a closer look

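*Boc* was lower in every *Gadlor*-KO EC sample than in every WT EC sample (log2 difference -0.60) and higher in every *Gadlor*-KO CM sample than in every WT CM sample (log2 difference 3.75). *Cd86* (-1.70 in ECs and 3.89 in CMs) and *Tmem39a* (-0.30 in ECs and 1.15 in CMs) showed the same opposite separation, though *Tmem39a* was not called in ECs. Groups that do not overlap were found for 26.2% of all EC genes and 59.5% of all CM genes. The difference between cell types was not tested for these 3 genes, since the tables were normalized separately. In the *Gadlor*-KO CM libraries the summed cardiomyocyte markers were at 9.41 to 12.6 log2 CPM against 14.8 to 15.5 in WT, and the summed macrophage markers at 8.59 to 10.2 against 3.49 to 5.22. No EC sample stood far enough from the other 3 of its group, by Dixon's criterion of 0.829 of the group's range, in any of the listed genes or *Lsamp* rows. Groups of 3 were not examined for such samples.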

How the results depend on the processing

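Over 252 alternative values of 19 log2 differences, 220 kept direction and call, 9 lost the call, 2 gained it and 21 changed sign. The 2 listed genes called in ECs became 0 with a pseudocount of 1 or 5 CPM and 1 with nuclear scaling, and ranged from 1 to 3 without single samples. The 4 genes called within 5 Mb in ECs became 2 and 0 with these pseudocounts and 15 with no fold threshold, and ranged from 2 to 5 without single samples. In FBs they ranged from 0 to 2, and in CMs from 14 to 25. Without single samples, the share of all CM genes called ranged from 22.9% (without *Gadlor*-KO sample 2) to 54.1% (without WT sample 6), and that of FB genes from 0% to 9.40%. Leaving out samples for the lists was added after seeing the data. Pseudocounts shrink differences of low genes by construction, and otherwise the cause was not tested.

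All changes of sign were in differences that were never called. In FBs, *Lsamp* was at 0.0017 and *Hspbap1* at 0.11 with nuclear scaling, and *Hspbap1* at 0.0093 with the Y-linked covariate. Without single samples, FB *Lsamp* ranged from -0.82 to 0.44, *Negr1* from -0.41 to 0.11 and *Hspbap1* from -0.072 to 0.061. The *Lsamp* rows ENSMUST00000187695 and ENSMUST00000078873 ranged from -0.27 to 0.42 and from -0.15 to 0.55 in ECs. In FBs the rows ENSMUST00000187695, ENSMUST00000078873 and ENSMUST00000099761 ranged from -0.81 to 0.54, from -0.86 to 0.80 and from -0.82 to 0.44. The alternatives for single rows were chosen after seeing the data.

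CM samples 1 and 2 of both genotypes share only a number. With a replicate block on these 4 samples, limma called 1 of 2 listed genes and 23 of 49 nearby genes, and 6774 genes in all, against 6696 for the same samples without the block, an alternative added after seeing the data. Deviations of same-numbered samples correlated at 0.05 and 0.08 across genes. Values of *Hspbap1* in CMs and of *Negr1* in ECs rested on under 100 reads per library, which limits their precision. The same holds for *Lsamp* row ENSMUST00000078873 in ECs (18 to 96 reads) and for *Boc* in WT CMs (6 to 30 reads). In *Gadlor*-KO FBs it holds for *Iglon5* (41 to 52 reads) and *Hspbap1* (58 to 97 reads).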
